A study of Mus musculus with 40 samples.

Results

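The 10 genes described here are the metallothioneins Mt1 and Mt2, the zinc exporters Slc30a1, Slc30a2, Slc30a4, Slc30a5 and Slc30a7, and the zinc importers Slc39a1, Slc39a10 and Slc39a14. They were taken by symbol from an expression table with 23304 distinct symbols, and all 10 were found. The table holds RNA sequencing of mouse ear skin and mast cells, 40 libraries in 10 groups of 4. Cre skin and sorted Cre mast cells came from mice that carry Cre at the Mrgprd locus (allele Mrgprdtm1.1(cre)And). DTR skin and sorted DTR mast cells came from the cross of that strain to Gt(ROSA)26Sortm1(HBEGF)Awai mice, in which Cre switches on a diphtheria toxin (DT) receptor, so that DT ablates MrgprD sensory neurons. DTR mice were given DT by intraperitoneal injection over 3 to 4 weeks, and both genotypes carry an acetone and olive oil label. The protocol text names DT for the Cre controls too, whereas their treatment labels do not, and this could not be settled. Ear skin of C57BL/6J mice received PBS or 50 mM β-alanine, a ligand of MrgprD, once a day for 2 days. Peritoneal-derived mast cells of C57BL/6J mice spent 6 h in glutamate-free Tyrode's buffer with vehicle or 4 mM glutamate, or 48 h in culture with vehicle or 50 uM NS102, a glutamate receptor antagonist. Ages are not given, and nothing says that replicates were separate animals or cultures, so p-values measure the spread between these libraries, which may be technical.

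Metallothioneins are small cysteine-rich proteins that bind zinc and buffer its free level in the cytosol. Proteins of the SLC30 (ZnT) family carry zinc out of the cytosol, across the plasma membrane or into vesicles and organelles, and proteins of the SLC39 (ZIP) family carry it in. The zinc-sensing transcription factor MTF1 activates Mt1, Mt2 and Slc30a1 through metal response elements in their promoters, and mast cell granules are known to be rich in zinc.

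Mt1, Mt2 and Slc30a1 were the 3 members whose NS102 libraries all lay above all their vehicle libraries, and the sequence before their start sites is therefore shown. It is RefSeq sequence on build GRCm38.p6, while the expression table uses mm9. Each run is the 250 bases before the start, on the plus strand, at chr8:94178839-94179088 (Mt1), chr8:94172368-94172617 (Mt2) and chr1:191906531-191906780 (Slc30a1). Capitals mark matches on either strand to the core of the metal response element, searched as TGCACNC and TGCGCNC.
Mt1: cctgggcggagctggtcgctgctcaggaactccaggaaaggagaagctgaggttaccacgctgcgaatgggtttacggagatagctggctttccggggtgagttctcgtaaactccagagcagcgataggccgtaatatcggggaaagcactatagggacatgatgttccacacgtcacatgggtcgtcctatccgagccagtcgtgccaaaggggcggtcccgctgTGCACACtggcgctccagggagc
Mt2: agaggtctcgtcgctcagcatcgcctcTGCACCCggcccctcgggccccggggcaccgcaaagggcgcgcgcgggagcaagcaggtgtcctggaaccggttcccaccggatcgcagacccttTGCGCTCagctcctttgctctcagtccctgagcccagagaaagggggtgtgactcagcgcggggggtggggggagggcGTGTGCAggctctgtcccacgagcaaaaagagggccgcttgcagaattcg
Slc30a1: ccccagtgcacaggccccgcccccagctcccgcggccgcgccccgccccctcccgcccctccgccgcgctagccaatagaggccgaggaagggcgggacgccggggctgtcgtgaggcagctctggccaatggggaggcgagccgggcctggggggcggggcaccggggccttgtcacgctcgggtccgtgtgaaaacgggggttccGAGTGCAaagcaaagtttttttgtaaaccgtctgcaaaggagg
The search also covered the 50 bases from the start on, which are not printed. In these 300 bases Mt2 held 4 matches, Mt1 held 3 and Slc30a1 held 2. The matches before the start began 23 bases upstream in Mt1, 223, 128 and 50 bases upstream in Mt2, and 43 bases upstream in Slc30a1. Those in the part not printed began at bases 3 and 21 in Mt1, base 5 in Mt2 and base 31 in Slc30a1. The printed runs thus do not hold all matches. Of all 32851 entries of that length, 25.7% held at least 1 match, 7.11% at least 2, 1.97% at least 3 and 0.517% at least 4. Slc30a4 held 3 matches, as many as Mt1, in a stretch of 82.8% G and C. Slc30a2 held 2, Slc30a5 held 1, and Slc30a7, Slc39a1 and both entries of Slc39a10 held 0. An entry was found for 9 of the 10 members, all but Slc39a14. A match describes the letters only and shows no binding.

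Levels are given as FPKM, fragments scaled to transcript length and library size, which allows levels of different genes to be set side by side. Summed FPKM ranged from 117574 to 508485 per library, and the read depth is unknown. The 11 mast cell markers summed to 10328 to 30496 FPKM in sorted and 67306 to 95566 FPKM in cultured libraries, and 6 keratinocyte markers to 9752 to 12655 FPKM in skin and at most 8.32 FPKM in any mast cell library. By Xist and the Y-linked genes, Cre and DTR skin was female, whereas PBS and β-alanine skin and both sorted groups were male, and all cultures held Xist (1.49 to 3.3 FPKM) with Y-linked genes listed at 0. Sorted cells thus differ in sex both from the skin of the same genotypes and from the cultures.

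Mt1 was abundant in all 10 groups, and NS102-treated mast cells stood above the rest. Its mean was 872 ± 55 FPKM with NS102 and lay between 197 ± 10.7 FPKM (glutamate) and 282 ± 17 FPKM (6 h vehicle) in the other 9 groups (SD, n = 4 per group). Among those 9, ordered by mean, every group overlapped the next in range. Mt2, in contrast, was high in skin and low in mast cells. It averaged 291 ± 21.1 and 286 ± 22.6 FPKM in DTR and Cre skin, and 242 ± 24.4 and 231 ± 20 FPKM in PBS and β-alanine skin. NS102-treated cells came next with 108 ± 6.49 FPKM, then sorted DTR and Cre cells with 27.9 ± 10.6 and 26.2 ± 6.25 FPKM. The remaining cultures were lowest, with 7.99 ± 1.65 FPKM (6 h vehicle), 6.6 ± 1.5 FPKM (48 h vehicle) and 4.79 ± 0.582 FPKM (glutamate). Within each of these 5 sets neighbours overlapped, and between the sets they did not.

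The proportion of the metallothioneins differed between skin and mast cells, and also within skin and within culture. Sex and strain differ between some of these groups as well. Mt1 over Mt2 was 0.759 ± 0.0636 in Cre, 0.731 ± 0.0641 in DTR, 1.12 ± 0.0417 in PBS and 1.08 ± 0.126 in β-alanine skin (SD, n = 4 per group). The ratio was 9.3 ± 2.84 in sorted Cre and 7.58 ± 1.36 in sorted DTR cells. In culture it was 36.1 ± 5.88 (6 h vehicle), 41.6 ± 5.26 (glutamate) and 36 ± 8 (48 h vehicle), but 8.09 ± 0.122 with NS102. Both genes lie on chromosome 8 of mm9, Mt2 at 96696517 to 96697467 and Mt1 at 96702988 to 96704227. They are close paralogs, and how reads matching both were counted is not stated, so these ratios are uncertain.

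**Figure D1:**
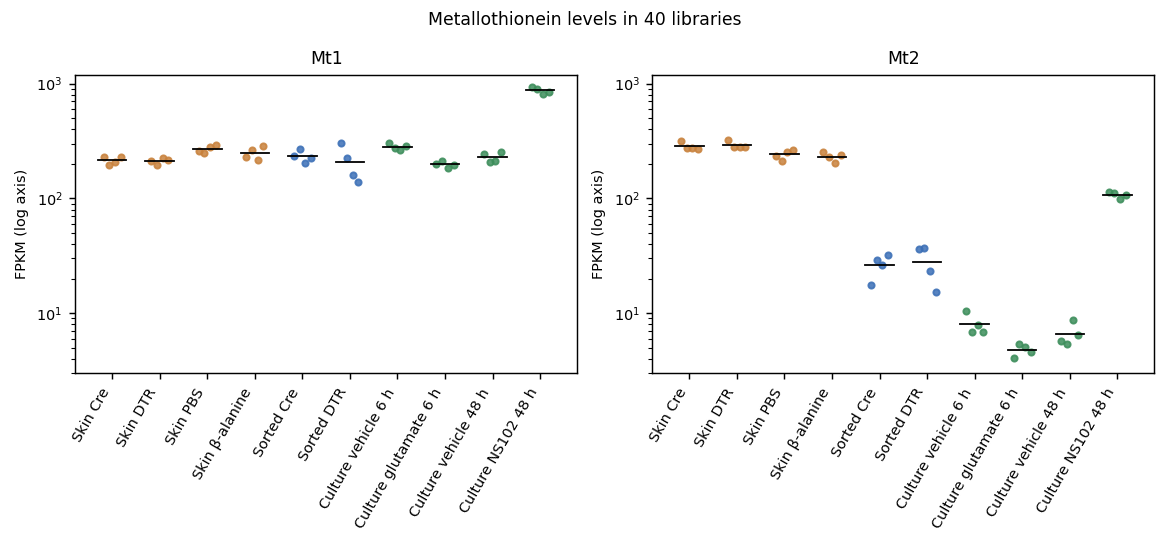
FPKM of Mt1 (left) and Mt2 (right) on a log axis in each of the 40 libraries, with a black line at each group mean; orange is skin, blue sorted and green cultured mast cells. Mt1 stands apart in the NS102 group, with a mean of 872 FPKM, whereas Mt2 runs from 291 FPKM in DTR skin to 4.79 FPKM with glutamate.

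Most transporters were also higher in skin than in mast cells, and Slc30a2 showed the opposite order. Slc30a2, which loads zinc into vesicles, had group means of 0.184 to 0.288 FPKM in skin, and in sorted cells it averaged 1.86 ± 0.649 FPKM (Cre) and 12 ± 2.82 FPKM (DTR; SD, n = 4 per group). In culture its group means were 12.4 to 29.1 FPKM. Slc30a1, the exporter of the plasma membrane, averaged 15.2 ± 0.546 FPKM (Cre), 14.9 ± 0.393 FPKM (DTR), 10.5 ± 0.799 FPKM (PBS) and 10.7 ± 0.834 FPKM (β-alanine) in skin. It reached at most 2.2 FPKM in a mast cell library. Slc30a4, another vesicular exporter, had group means of 15.1 to 17 FPKM in skin, 1.29 to 2.89 FPKM in sorted and 0.0882 to 0.551 FPKM in cultured cells. The importer Slc39a1 had group means of 39.7 to 43.2 FPKM in skin and 1.07 to 2.04 FPKM in mast cells. Slc30a5 and Slc30a7, which serve the secretory pathway, ranged over 5.03 to 19.7 and 1.88 to 5.19 FPKM across the 10 group means. The importers Slc39a10 and Slc39a14 ranged over 0.579 to 6.62 and 0.716 to 2.69 FPKM.

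**Figure D2:**
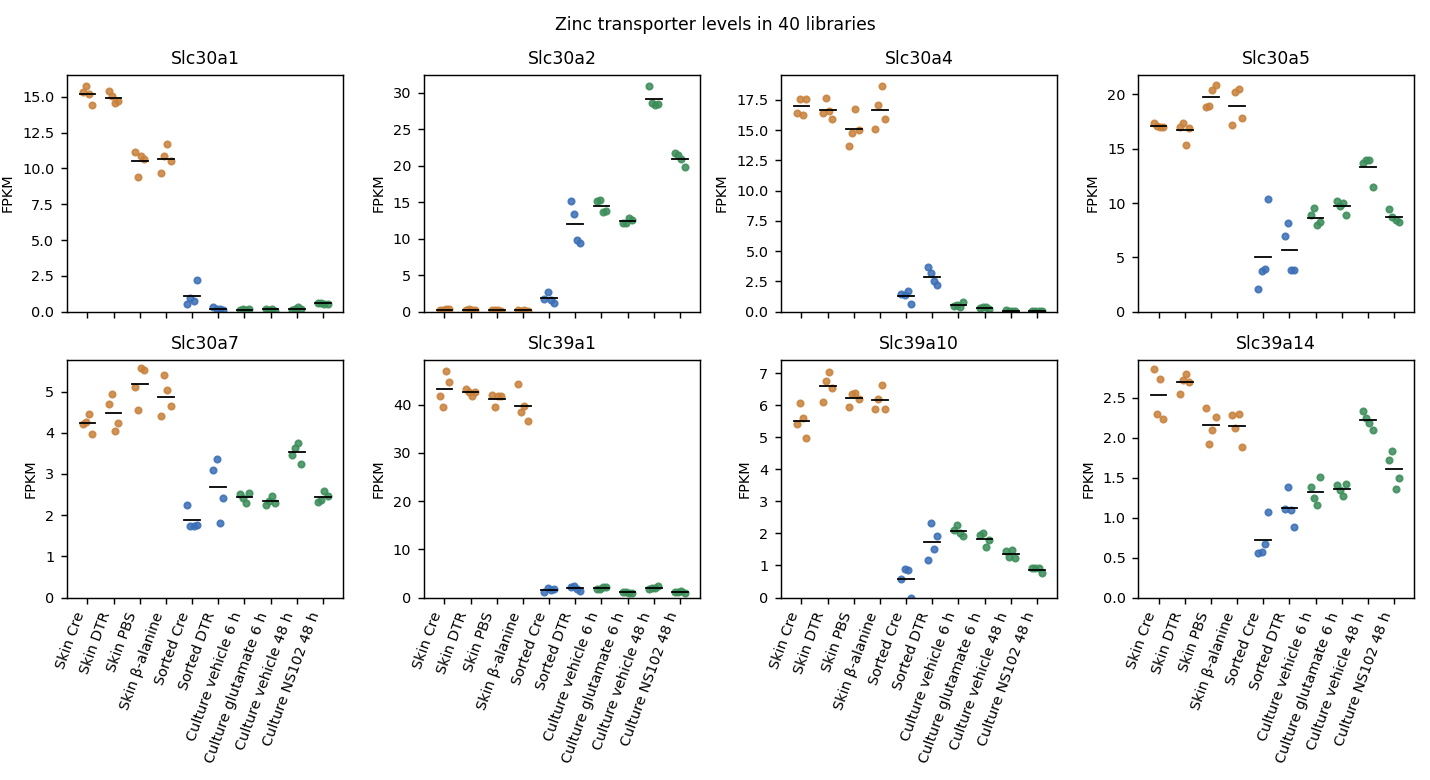
FPKM of the 8 zinc transporters in each library on linear axes, with a black line at each group mean; orange is skin, blue sorted and green cultured mast cells. Slc30a2 is near 0 in skin and reaches 31 FPKM in a 48 h vehicle library, while Slc30a1 and Slc39a1 are high in skin and low in mast cells.

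Sorted Cre cells were compared with Cre skin. On log2(FPKM + 1) with limma, at an adjusted p under 0.05, 8 of 10 members were lower and 1 was higher in sorted cells. Of all 12693 genes tested, 89.8% passed, 80.0% lower and 9.85% higher, so the members' share is near the background. The higher member was Slc30a2 (log2 change 1.12, SE 0.143, limma adjusted p = 5.48e-05). It met the filter of 1 FPKM in 4 libraries through the sorted group alone, as Slc39a10 did through skin alone, so these 2 genes had to differ to be tested, and Slc30a2 was not tested without any 1 of the sorted libraries. Mt1 did not pass (232 ± 27 FPKM in sorted cells and 216 ± 17.4 FPKM in skin, log2 change 0.10, 95% interval -0.15 to 0.34), and Mt2 fell by 3.42 on the log2 scale. All genes had a median of -1.42 on this scale. After each library was centred on its median gene 4 members were higher and 4 lower, against 5128 higher and 4152 lower of all 12693 genes. Centring turned Slc30a7 and Slc39a14 from lower to higher (0.69 and 0.50) and gave Mt1 a log2 change of 1.65; sex and material cannot be told apart here.

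NS102 gave the members' largest differences in culture: both metallothioneins rose and the 6 tested transporters fell. Mt1 was at 243, 207, 212 and 255 FPKM in the 4 vehicle libraries and at 927, 906, 805 and 851 FPKM in the 4 NS102 libraries. Mt2 was at 5.75, 5.4, 8.74 and 6.51 FPKM with vehicle and at 113, 112, 98.8 and 107 FPKM with NS102. For both genes every NS102 library was far above every vehicle library. The ratio of means was 3.81 for Mt1 (log2 change 1.93, SE 0.0749, limma adjusted p = 1.72e-09). It was 16.3 for Mt2 (log2 change 3.86, SE 0.11, limma adjusted p = 2.53e-10). Slc30a1, named above as a target of MTF1, was at 0.146, 0.173, 0.34 and 0.197 FPKM with vehicle and at 0.579, 0.606, 0.56 and 0.56 FPKM with NS102. These groups did not overlap, but Slc30a1 stayed under the filter of 1 FPKM in 4 libraries. Tested without that filter it had a log2 change of 0.38 (limma adjusted p = 0.000323). The part of MTF1 in these changes was not tested.

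In all, 8 of 8 tested members passed with NS102, 2 higher and 6 lower. Over 8373 genes 70.5% passed, 30.8% higher and 39.7% lower, so passing is common in this comparison. Slc30a2 went from 29.1 ± 1.24 to 21 ± 0.798 FPKM (log2 change -0.45, SE 0.0532, limma adjusted p = 1.06e-05; SD, n = 4 per group). Slc30a5 went from 13.3 ± 1.17 to 8.7 ± 0.502 FPKM and Slc30a7 from 3.52 ± 0.22 to 2.43 ± 0.124 FPKM. Among importers, Slc39a1 went from 2.04 ± 0.301 to 1.17 ± 0.103 FPKM, Slc39a10 from 1.36 ± 0.124 to 0.875 ± 0.0682 FPKM and Slc39a14 from 2.22 ± 0.0993 to 1.6 ± 0.216 FPKM. In each of these transporters all NS102 libraries lay below all vehicle libraries, and log2 changes ran from -0.55 (Slc30a5) to -0.31 (Slc39a14). Slc39a10 met the filter through the vehicle group alone. The median log2 change was -0.36 over the members tested and -0.06 over all genes. Slc30a4 averaged 0.0882 and 0.0977 FPKM and was not tested. Of 11 mast cell markers 7 rose and 2 fell with NS102, with sums of 67306 to 70126 FPKM against 71531 to 83968 FPKM, and their part in the result was not tested.

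Glutamate lowered both metallothioneins on the values as deposited. Mt1 was at 303, 273, 264 and 288 FPKM in the 4 vehicle libraries and at 198, 211, 185 and 197 FPKM in the 4 glutamate libraries. Mt2 was at 10.3, 6.8, 7.95 and 6.88 FPKM with vehicle and at 4.09, 5.4, 5.11 and 4.57 FPKM with glutamate. No glutamate library reached a vehicle library in either gene. The changes were -0.51 for Mt1 (log2, SE 0.0477, limma adjusted p = 4.14e-07) and -0.62 for Mt2 (log2, SE 0.114, limma adjusted p = 0.000212). The median gene itself changed by -0.33, and relative to it Mt1 changed by -0.18 and Mt2 by -0.29. After median centring neither metallothionein passed (limma adjusted p = 0.0872 and 0.112). The 11 mast cell markers summed to 69512 to 72130.0 FPKM with vehicle and 93601 to 95566 FPKM with glutamate, and their part in the result was not tested.

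Among 8 members tested with glutamate, 4 were lower and 1 was higher, against 79.3% of 8297 genes passing, 62.4% lower and 16.9% higher. After centring 5 were higher and 0 lower, and over all genes the share of calls that were higher went from 21.3% to 58.6%. Slc39a1 went from 1.94 ± 0.216 to 1.07 ± 0.0818 FPKM (limma adjusted p = 2.58e-05, and 0.285 after centring; SD, n = 4 per group). Slc30a2 went from 14.5 ± 0.87 to 12.4 ± 0.337 FPKM, a log2 change of -0.20 that became 0.21 after centring. Slc30a5 was the member that rose, from 8.64 ± 0.692 to 9.72 ± 0.575 FPKM (log2 change 0.15, SE 0.0655, limma adjusted p = 0.0454), with 0.57 after centring. Without vehicle library 3 or 4, or glutamate library 1, 2 or 3, its uncentred call ended (adjusted p 0.076 to 0.125). Slc30a7, Slc39a10 and Slc39a14 did not pass as deposited (-0.04, -0.12 and 0.02) and were higher after centring (0.37, 0.30 and 0.44).

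An interaction term over 16 libraries set the NS102 effect against the glutamate effect. The NS102 effect was greater by 2.44 for Mt1 (log2, SE 0.0938, limma adjusted p = 1.64e-13) and by 4.48 for Mt2 (log2, SE 0.173, limma adjusted p = 1.64e-13). It was lower for Slc30a2, Slc30a5, Slc30a7 and Slc39a14, by -0.25, -0.71, -0.35 and -0.33. That is 6 of 8 members, against 75.9% of 8896 genes, 52.5% higher and 23.3% lower, with a median over all genes of 0.29. After median centring 2 members were higher and 6 lower, and the share of all calls that were higher went from 69.2% to 39.9%. Compound, time and medium differ together here and cannot be told apart.

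**Figure D3:**
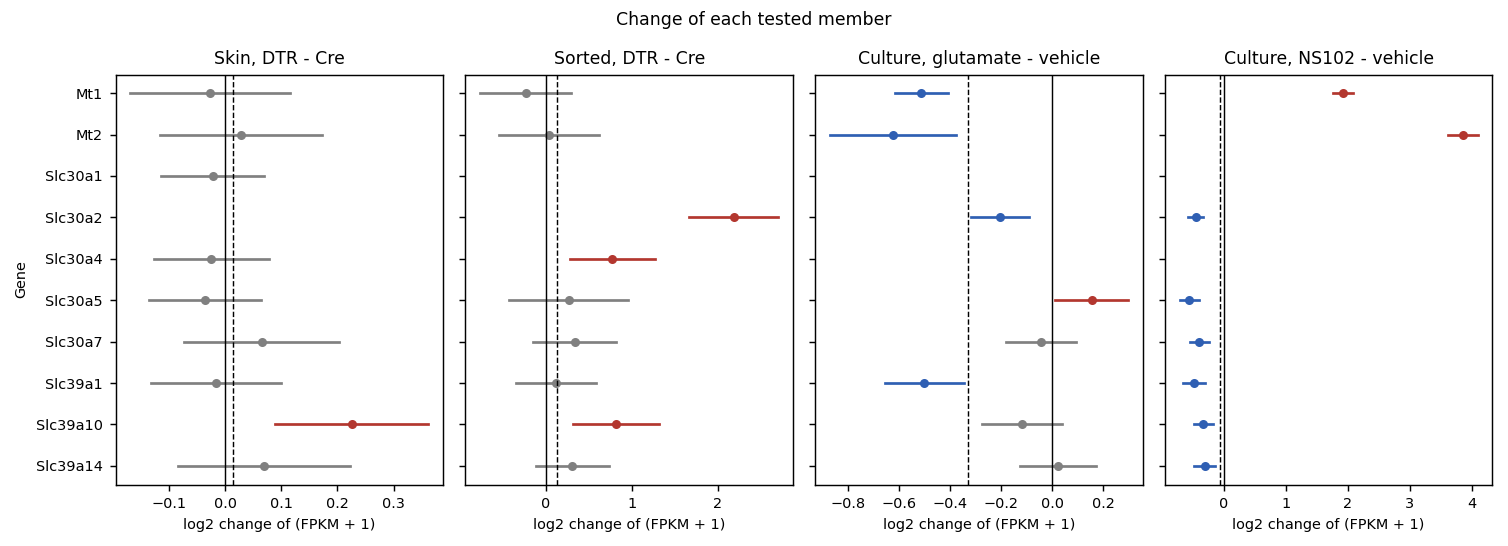
Log2 change of FPKM + 1 for each tested member in 4 comparisons of 4 against 4 libraries, with 95% intervals from limma; red is higher, blue lower and grey not past the test, the dashed line is the median of all genes, and axis ranges differ between panels. Mt1 and Mt2 stand at 1.93 and 3.86 with NS102, and Slc30a2 at 2.19 in sorted cells after ablation.

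Vehicle-treated cultures differed between 48 h and 6 h. Slc30a2 averaged 29.1 ± 1.24 FPKM at 48 h and 14.5 ± 0.87 FPKM at 6 h, a ratio of 2.01 (log2 change 0.96, SE 0.0566, limma adjusted p = 1.91e-09; SD, n = 4 per group). Slc30a5, Slc30a7 and Slc39a14 were higher at 48 h as well (0.56, 0.39 and 0.47), and Mt1 and Slc39a10 were lower (-0.30 and -0.38). Mt2 and Slc39a1 did not pass (limma adjusted p = 0.114 and 0.63). So 6 of 8 tested members passed, 4 higher and 2 lower, against 71.9% of 8467 genes, 34.2% higher and 37.7% lower. Slc30a4, under the filter, averaged 0.551 ± 0.169 FPKM at 6 h and 0.0882 ± 0.0368 FPKM at 48 h without overlap, and tested without the filter it was lower at 48 h (log2 change -0.51, limma adjusted p = 0.000416). Time and medium changed together, and the same libraries serve as controls for glutamate and NS102. Without 48 h library 3, Mt2 passed as well (adjusted p = 0.0132).

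In sorted mast cells, neuron ablation went with higher Slc30a2, Slc30a4 and Slc39a10. Slc30a2 was at 1.75, 2.78, 1.64 and 1.25 FPKM in the 4 Cre libraries and at 15.2, 13.4, 9.82 and 9.43 FPKM in the 4 DTR libraries. All DTR libraries lay well above all Cre libraries, with a ratio of means of 6.46 (log2 change 2.19, SE 0.248, limma adjusted p = 7.86e-07). Slc30a4 was at 1.46, 1.41, 1.68 and 0.631 FPKM in Cre and at 3.67, 3.17, 2.56 and 2.17 FPKM in DTR libraries (log2 change 0.77, SE 0.237, limma adjusted p = 0.015). Slc39a10 was at 0.587, 0.884 and 0.846 FPKM in Cre libraries 1 to 3, listed at 0 in Cre library 4, and at 1.17, 2.33, 1.53 and 1.92 FPKM in DTR libraries (log2 change 0.82, SE 0.238, limma adjusted p = 0.011). Neither gene's groups overlapped. Slc39a10 was under 1 FPKM in all Cre libraries and met the filter through the 4 DTR libraries alone, so it had to differ to be tested. Relative to the median change of all genes, 0.13, the rises were 2.05, 0.64 and 0.69. With no filter on low values Slc30a4 and Slc39a10 no longer passed (adjusted p = 0.0557 and 0.0852). Without DTR library 1 Slc30a4 had an adjusted p of 0.0603 and Slc39a10 was not tested without any 1 of the 4 DTR libraries.

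The metallothioneins did not pass in sorted cells. Mt1 was at 233, 268, 203 and 223 FPKM in Cre and at 301, 223, 160.0 and 138 FPKM in DTR libraries (log2 change -0.23, 95% interval -0.76 to 0.30, limma adjusted p = 0.503). The groups overlapped, and DTR libraries 3 and 4, which had the least Mt1, also had the lowest summed FPKM of the table (117574 and 126017). Mt2 was at 17.5, 29.2, 26.4 and 31.9 FPKM in Cre and at 36.1, 37.2, 23.1 and 15.3 FPKM in DTR libraries (log2 change 0.04, 95% interval -0.54 to 0.62). Slc30a1 was at 0.53, 0.976, 0.738 and 2.2 FPKM in Cre and at 0.307, 0.22, 0.16 and 0.115 FPKM in DTR libraries. It was lower in each DTR library than in any Cre library, but was under the filter, and without the filter its adjusted p was 0.076. In total 3 of 9 tested members rose, Slc39a10 with the limit given above, and 0 fell. Of 8871 genes 35.8% passed, 18.9% higher and 16.9% lower. The other tested transporters, Slc30a5, Slc30a7, Slc39a1 and Slc39a14, had log2 changes of 0.27, 0.34, 0.12 and 0.31 and did not pass. Without Cre library 4, Slc30a5 passed (log2 change 0.63, adjusted p = 0.0429).

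Markers of other cells differed between the sorted groups. Of 4 basophil markers 3 fell, and their sum was 523 to 825 FPKM in Cre and 111 to 192 FPKM in DTR libraries. Of 5 macrophage and monocyte markers tested 3 fell, with a sum over the list of 41.3 to 51.2 FPKM in Cre and 6.85 to 17.4 FPKM in DTR libraries. Endothelial markers summed to 8.43 to 14.5 FPKM in Cre and 0.0837 to 0.304 FPKM in DTR libraries. Of 11 mast cell markers 7 rose and 2 fell. Single libraries stood out too, with red blood cell markers at 664 FPKM in Cre library 2, neutrophil markers at 208 FPKM in Cre library 3 and fibroblast markers at 379.6 FPKM in Cre library 4. The part of these markers in the zinc gene differences was not tested. Slc30a2, Slc30a4 and Slc39a10 passed when any 1 of the 4 Cre libraries was left out, Slc39a10 having met the filter through DTR libraries alone. Leaving out 1 library cannot test the basophil, macrophage and endothelial differences, which are present in all 4 Cre libraries.

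In ear skin the same ablation left all but 1 of the tested members without a call. Mt1 averaged 216 ± 17.4 FPKM without and 212 ± 12.6 FPKM with ablation (log2 change -0.03, 95% interval -0.17 to 0.11; SD, n = 4 per group). Mt2 averaged 286 ± 22.6 FPKM without and 291 ± 21.1 FPKM with ablation (log2 change 0.03, 95% interval -0.12 to 0.17). Slc39a10 was at 5.43, 6.06, 5.6 and 4.98 FPKM in Cre libraries and at 6.11, 6.76, 7.05 and 6.55 FPKM in DTR libraries. Its groups were close and did not overlap (log2 change 0.23, SE 0.0616, limma adjusted p = 0.0384). It was 1 of 9 tested members, against 13.6% of 12607 genes passing, 7.38% higher and 6.25% lower. The call ended after median centring (adjusted p = 0.0563), and without any of Cre libraries 1, 3 and 4 or DTR libraries 2, 3 and 4 (adjusted p 0.0592 to 0.0938). In bulk skin, fewer cells of a type and less RNA per cell cannot be told apart. All 10 tested mast cell markers rose in DTR skin, with sums of 70.8 to 92.8 FPKM in Cre and 207 to 251 FPKM in DTR libraries, while all 5 adipocyte and all 6 muscle markers fell. Their part in the Slc39a10 value was not tested.

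The ablation effect was then compared between sorted cells and skin over 16 libraries. It was greater in sorted cells for Slc30a2 (log2 change 2.21, SE 0.216, limma adjusted p = 1.1e-06) and Slc30a4 (log2 change 0.80, SE 0.208, limma adjusted p = 0.00927). For Slc30a1 it was lower (log2 change -0.73, SE 0.233, limma adjusted p = 0.0276), and this call ended without Cre skin library 4 or DTR skin library 1 (adjusted p 0.0517 to 0.0536). Slc30a1 met the filter through skin, since among sorted libraries only Cre library 4 (2.2 FPKM) reached 1 FPKM. Slc30a2 met the filter through sorted cells alone, being at most 0.349 FPKM in these skin libraries. It was not tested within skin, so its term mainly repeats the change in sorted cells. Thus 3 of 10 members differed, Slc30a1 and Slc30a2 with these limits, against 27.7% of 13153 genes, 14.4% higher and 13.3% lower. Mt1 and Mt2 did not pass (limma adjusted p = 0.604 and 0.989). By Xist and the Y-linked genes both skin groups were female and both sorted groups male, so sex and material cannot be told apart here.

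Topical β-alanine left all 9 tested members without a call by limma. Mt1 averaged 269.7 ± 19.3 FPKM with PBS and 249 ± 32 FPKM with β-alanine (log2 change -0.12, 95% interval -0.33 to 0.10; SD, n = 4 per group). Mt2 averaged 242 ± 24.4 and 231 ± 20 FPKM (log2 change -0.06, 95% interval -0.27 to 0.14). Of the members 0 had an unadjusted p under 0.05, the lowest being 0.122 for Slc30a4. Over 12709 genes 0.212% passed, 0.0157% higher and 0.197% lower. The mast cell markers did move, with 7 of 10 tested lower and sums of 217 to 266 FPKM with PBS and 5.13 to 8.53 FPKM with β-alanine.

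The other zinc genes, a list of 19, hold Mt3, Mt4, the sensor Mtf1 and the remaining transporters of both families. Mt4, the metallothionein of stratified epithelium, averaged 908 ± 35.5 FPKM in skin without and 744 ± 34 FPKM in skin with ablation (SD, n = 4 per group). It fell by 0.29 on the log2 scale (SE 0.0491, limma adjusted p = 0.00744). It was the 1 of 13 tested genes of the list to pass in skin after ablation, against 13.6% of all genes. PBS and β-alanine skin held 647 ± 35.9 and 645 ± 33.6 FPKM of Mt4, and 0 of 13 genes passed between them, against 0.212% of all genes. Mt4 was listed at 0 in all cultured libraries.

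In sorted cells 4 of 8 tested genes of the list rose after ablation and 0 fell, against 18.9% of all genes higher and 16.9% lower. Slc39a11 went from 0.996 ± 0.262 to 3.75 ± 1.11 FPKM and Slc39a13, a Golgi transporter, from 2.07 ± 0.656 to 5.68 ± 1.68 FPKM (limma adjusted p = 0.000427 and 0.00189; SD, n = 4 per group). Slc39a3 went from 0.893 ± 0.0726 to 3 ± 0.585 FPKM and Slc39a9 from 1.71 ± 0.205 to 3.57 ± 0.479 FPKM (limma adjusted p = 0.000635 and 0.0113). Slc39a3 met the filter through the DTR group alone. The importer Slc39a4 went the other way, from 2.63 ± 1.52 to 0.337 ± 0.152 FPKM without overlap, but was under the filter and not tested. The median log2 change was 0.71 over the tested genes of the list and 0.13 over all genes.

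With NS102, 5 of 10 tested genes of the list fell and 2 rose, against 39.7% of all genes lower and 30.8% higher. Slc39a8, which imports zinc and other metals, went from 2.83 ± 0.227 to 0.877 ± 0.0562 FPKM (log2 change -1.03, SE 0.0723, limma adjusted p = 1.89e-07; SD, n = 4 per group). It met the filter through the vehicle group alone. Slc39a11, Slc39a9, Slc39a4 and Slc30a6 fell by 0.81, 0.60, 0.54 and 0.49 on the log2 scale. Slc39a7, which releases zinc from the endoplasmic reticulum, rose from 15.5 ± 1.44 to 22.5 ± 2.36 FPKM (limma adjusted p = 0.000146). The sensor Mtf1 averaged 0.616 ± 0.049 and 0.749 ± 0.086 FPKM and was under the filter.

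With glutamate, 8 of 9 tested genes of the list fell and 1 rose, against 62.4% of all genes lower and 16.9% higher. After median centring 4 were lower and 2 higher, while 58.6% of all calls were higher. Slc39a13 went from 2.99 ± 0.284 to 1.18 ± 0.128 FPKM and Slc39a11 from 8.43 ± 0.55 to 4.29 ± 0.247 FPKM, with log2 changes of -0.46 and -0.42 after centring (limma adjusted p = 0.000133 and 2.39e-05; SD, n = 4 per group). Slc39a7 rose from 15.4 ± 1.06 to 22.7 ± 2.03 FPKM, by 0.53 as deposited and 0.94 after centring.

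**Figure D4:**
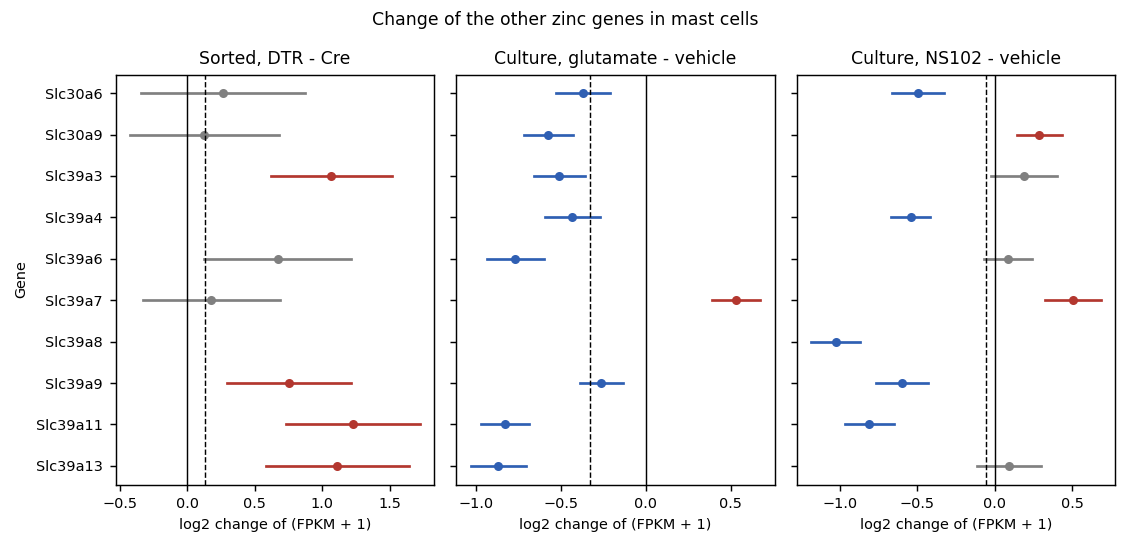
Log2 change of FPKM + 1 with 95% intervals from limma for the tested genes of the other zinc list in mast cells; red is higher, blue lower and grey not past the test, the dashed line is the median of all genes, and axis ranges differ between panels. Slc39a8 is lowest with NS102 at -1.03, and Slc39a3, Slc39a9, Slc39a11 and Slc39a13 are higher in sorted cells after ablation.

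At 48 h against 6 h of vehicle 8 of 10 tested genes of the list were higher and 0 lower, against 34.2% of all genes higher and 37.7% lower. Slc39a8 was among the higher ones (1.01 ± 0.16 FPKM at 6 h and 2.83 ± 0.227 FPKM at 48 h; SD, n = 4 per group). In sorted Cre cells against Cre skin 12 of 13 were lower and 0 higher, against 80.0% and 9.85% of all genes. Mt3, Mt4, Slc39a2, Slc39a3 and Slc39a8 met the filter through skin alone, so these genes had to differ to be tested. After centring 5 were lower and 4 higher, against 4152 lower and 5128 higher of all 12693 genes tested.

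Leaving out predicted genes (Gm numbers and Rik names), small RNAs, Mt1, Mt2 and Slc30a1, the genes most like Mt1 over the 10 group means of log2(FPKM + 1), among 13624 genes, were Csf2, Pira7, Crisp1, Lilra6 and Ndst3, with Pearson's r of 0.952, 0.947, 0.880, 0.863 and 0.857. Of the predicted genes left out, 2 had an r above that of Ndst3. These are descriptions over 10 groups that share material and culture. Mt1 stood apart in the NS102 group alone, so these r values mainly set that group against the rest. Genes compared reached 1 FPKM in at least 4 of the 40 libraries. Csf2, Pira7 and Ndst3 averaged under 1 FPKM in every group but NS102, so that group alone may have brought them past this filter. Csf2, which encodes the cytokine GM-CSF, averaged 3.54 FPKM with NS102 and at most 0.669 FPKM in another group. Pira7 and Lilra6, genes of the paired immunoglobulin-like receptor family, averaged 4.69 and 5.21 FPKM with NS102, and at most 0.929 and 1.31 FPKM elsewhere. For Slc30a1 they were Mcf2l, Ism1, Fam101b, Mmp9 and Mmrn1, with r from 0.997 to 0.998. Mmp9, a gelatinase, averaged 3.28 to 4.79 FPKM in skin groups and at most 0.432 FPKM in mast cell groups. Mt2 had an r of 0.185 with Mt1 (rank 2435 among the 13624 genes) and 0.895 with Slc30a1 (rank 6178). An r that high with Slc30a1 was thus common among all genes.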

How the data were processed

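The deposited values are FPKM, which the authors obtained with STAR and Cufflinks against mm9, per the submitters' processing notes. The header names no unit, and versions, annotation and multi-read handling are not given in the sources used here. Libraries were single or paired end, per the labels' protocols. FPKM were analysed as log2(FPKM + 1), which understates fold changes of low genes, with no added scaling. A row was tested if 4 or more of the libraries in its comparison reached 1 FPKM. Two-sided limma 3.58.1 (R 4.3.3, trended prior variance) compared groups of 4, or 16 libraries for the 2 interactions. Benjamini-Hochberg adjustment ran over all rows tested, with a threshold of 0.05. The script was tested on simulated data. Python 3.11.15, pandas 2.3.3, numpy 2.4.6 and matplotlib 3.10.9 gave levels, motif matches and figures. All 10 members are named, other zinc genes up to 6 past the test per comparison in order of p, and the 5 genes most like Mt1 and Slc30a1, leaving out those 2 genes, Mt2, predicted genes and small RNAs. Mtf1 and the Mt4 levels outside the ablation comparison were added after their values were seen, as was Slc39a4 in sorted cells. Members and lists were chosen with earlier results of these data known. Alternatives were a pseudocount of 0.1, no filter, median centring, the replicate number as a block, 1 fit of all 40 libraries, and leaving out each library.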

Additional observations from a re-analysis of the deposited data

Results flagged for a closer look

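In 7 of 100 groups of 4 libraries, 1 library stood apart from the other 3 by Dixon's test, which chance does in about 1 in 20 groups. Mt2 was at 319.4 FPKM in Cre skin library 1, against 271.5 to 276.1 FPKM in the others, and at 322.9 FPKM in DTR skin library 1, against 279.7 to 281.3 FPKM. In 48 h vehicle cultures Slc30a2 was at 30.98 FPKM in library 1 (others 28.35 to 28.66 FPKM) and Slc30a5 at 11.51 FPKM in library 4 (others 13.71 to 13.92 FPKM). Slc30a7 was at 2.256 FPKM in sorted Cre library 1 (others 1.737 to 1.77 FPKM). Slc39a1 was at 39.41 FPKM in PBS skin library 2 (others 41.69 to 41.95 FPKM). Slc39a10 was at 0.7726 FPKM in NS102 library 4 (others 0.9065 to 0.9107 FPKM).

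The ablation effect differed between sorted cells and skin, by limma's interaction term, for Slc30a1 (-0.73), Slc30a2 (2.21) and Slc30a4 (0.80) on the log2 scale. Slc30a1 met the filter through skin and was mostly under 1 FPKM in sorted cells. Slc30a2 met the filter through sorted cells alone. The sorted cells and this skin also differ in sex, which cannot be told apart from material. The NS102 effect differed from the glutamate effect for Mt1 (2.44), Mt2 (4.48), Slc30a2 (-0.25), Slc30a5 (-0.71), Slc30a7 (-0.35) and Slc39a14 (-0.33).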

How the results depend on the processing

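Single members kept their direction and their side of the threshold in 1066 of the alternatives' values. They changed sign without passing the test either way in 33, lost the call in 29, gained one in 17 and reversed in 6. The reversals that involve a call all came from median centring: with glutamate Slc30a2 (0.209), Slc30a7 (0.3674) and Slc39a10 (0.2951), in sorted cells against skin Slc30a7 (0.6861) and Slc39a14 (0.5041), and in the interaction of NS102 and glutamate Slc39a1 (-0.43). The number of members past the test in skin after ablation went from 1 to 0 with no filter, with median centring and in the fit of all 40 libraries. In sorted cells it went from 3 to 1 with no filter and to 5 in the fit of all 40 libraries, and with glutamate from 5 to 3 in that fit; the cause was not tested. Leaving out 1 library gave 0 to 1 members in skin after ablation, 0 to 0 with β-alanine, 1 to 4 in sorted cells, 4 to 5 with glutamate, 7 to 8 with NS102, 6 to 7 between vehicle times and 8 to 8 in sorted cells against skin, where the full fit gave 9: Slc30a2 was not tested without a sorted library, nor Slc39a10 without a skin library. It gave 2 to 4 for the ablation interaction and 6 to 7 for the other.

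Over all genes, calls in skin after ablation went from 1719 to 511 in the fit of all 40 libraries and to 1122, 928, 865, 773 and 989 without Cre library 2 or 4 or DTR library 1, 2 or 3. With β-alanine they went from 27 to 76 in that fit and to 13, 11, 12 and 12 without PBS libraries 1 to 4. They went from 3173 to 5981 in sorted cells and from 3639 to 5815 for the ablation interaction in that fit.

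In no comparison did same-numbered libraries deviate together in every pair. Correlations of their deviations from the group means ran from -0.247 (NS102, number 1) to 0.463 (vehicle times, number 1). This cannot exclude pairing, and the labels do not say whether the numbers pair samples. With the replicate block the members past the test numbered 1 in skin after ablation, 0 with β-alanine, 3 in sorted cells, 5 with glutamate, 8 with NS102, 7 between vehicle times (6 without it, Mt2 being added at an adjusted p of 0.0368), 9 in sorted cells against skin, and 3 and 6 for the interactions. Depth is unknown, so members under 1 FPKM carry an unknown counting error.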
